A study of Mus musculus with 6 samples.

Results

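Prostaglandin synthesis and receptor genes were followed in the mouse uterus on the eve of embryo attachment, with and without epithelial SOX17. The 10 genes were taken by name for their place in the pathway: *Pla2g4a* and *Pla2g10* release the fatty acid precursor, *Ptgs1* and *Ptgs2* encode the cyclooxygenases, *Ptges* and *Ptgis* encode terminal synthases, *Hpgd* encodes the enzyme that inactivates prostaglandins, and *Ptger2*, *Ptger4* and *Ptgfr* encode receptors. They are 10 of the 20145 genes with a probe on the arrays, and were chosen with earlier results of these data known. Each was matched to at least 1 probe, *Ptges* and *Hpgd* to 2.

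Whole uteri were taken at gestational day (GD) 3.5 from 3 Sox17f/f and 3 Sox17ed/ed females, each hybridised to its own 1-colour Agilent array. Sox17ed/ed mice carry LtfiCre/+ with Sox17 f/f, so a Cre made from the lactoferrin locus removes *Sox17* from uterine epithelium from puberty on, while other cells, such as endothelium, keep it. The Sox17f/f mice carry the same floxed alleles without Cre, so the presence of Cre and the loss of *Sox17* cannot be told apart. Females of both genotypes were 8 to 10 weeks old, had mated naturally with fertile males, and had their embryos flushed out before the tissue was frozen. The tissue holds epithelium, stroma, muscle, vessels and leukocytes together.

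Prostaglandins are short-lived lipid signals made where they act. A phospholipase A2 frees arachidonic acid from membranes, and a cyclooxygenase turns it into prostaglandin H2. Terminal synthases convert that into prostaglandin E2, I2, D2 or F2 alpha, each read by its own receptors on nearby cells. The enzyme 15-hydroxyprostaglandin dehydrogenase starts the breakdown of prostaglandins E2 and F2 alpha. In the rodent uterus prostaglandins are known for their part in the rise of vascular permeability, in implantation and decidualization, and later in labour.

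Of the 10 genes, 2 were lower and 2 higher in Sox17ed/ed uteri. *Pla2g10*, a secreted phospholipase A2, and *Ptger2*, the prostaglandin E2 receptor EP2, fell to near the array background. *Ptgs1* and *Ptgs2*, encoding both cyclooxygenases, rose. The cytosolic phospholipase gene *Pla2g4a*, both terminal synthase genes, *Hpgd* and *Ptgfr* did not pass the test. A gene was called where its unadjusted p was under 0.01 and its fold change at least 1.4, the thresholds the study's methods name. By that rule 12.5% of the 14847 genes tested were called, 6.04% as higher and 6.47% as lower.

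**Figure D1:**
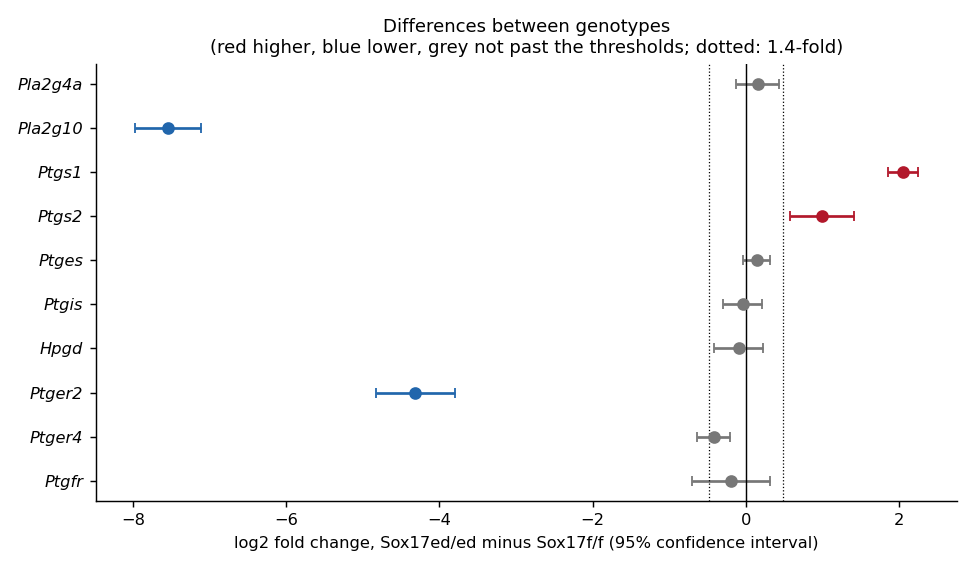
Log2 fold change of each of the 10 genes, Sox17ed/ed minus Sox17f/f, with its 95% confidence interval; red points were called higher, blue points lower and grey points neither, and dotted lines mark a 1.4-fold change. The points run from -7.54 for *Pla2g10* to 2.06 for *Ptgs1*.

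The promoters of the 4 called genes are shown because SOX17 is a DNA-binding factor whose family recognises a short core. Each is the 250 bases before the annotated start in RefSeq's GRCm38.p6 assembly, read 5′ to 3′ on the gene's own strand. Capitals mark the SOX core searched, ACAAT or its reverse complement ATTGT. *Pla2g10* lies on the minus strand at chr16:13730485-13730734, *Ptger2* on the plus strand at chr14:44987861-44988110, *Ptgs1* on the plus strand at chr2:36230176-36230425 and *Ptgs2* on the plus strand at chr1:150099781-150100030.
Pla2g10: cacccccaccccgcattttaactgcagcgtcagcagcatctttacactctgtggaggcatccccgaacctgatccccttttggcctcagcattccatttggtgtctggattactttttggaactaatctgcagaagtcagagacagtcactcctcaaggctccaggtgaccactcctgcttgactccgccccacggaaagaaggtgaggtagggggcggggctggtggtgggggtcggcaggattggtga
Ptger2: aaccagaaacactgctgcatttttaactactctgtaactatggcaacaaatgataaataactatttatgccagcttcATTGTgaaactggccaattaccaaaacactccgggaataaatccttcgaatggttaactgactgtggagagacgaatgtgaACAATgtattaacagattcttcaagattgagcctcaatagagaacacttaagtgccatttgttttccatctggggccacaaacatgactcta
Ptgs1: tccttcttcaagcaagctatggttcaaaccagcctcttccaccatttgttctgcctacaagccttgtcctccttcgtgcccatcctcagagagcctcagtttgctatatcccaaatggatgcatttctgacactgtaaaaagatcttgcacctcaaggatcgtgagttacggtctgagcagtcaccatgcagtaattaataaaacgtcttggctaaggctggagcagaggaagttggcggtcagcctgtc
Ptgs2: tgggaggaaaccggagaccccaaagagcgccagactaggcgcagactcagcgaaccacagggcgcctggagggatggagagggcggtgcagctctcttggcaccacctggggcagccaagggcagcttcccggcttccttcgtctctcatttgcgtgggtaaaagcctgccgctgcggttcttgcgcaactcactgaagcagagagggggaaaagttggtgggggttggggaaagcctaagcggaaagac

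The *Ptger2* window held 2 matches, 173 and 92 bases before the start, whereas those of *Pla2g10*, *Ptgs1* and *Ptgs2* held none. Of the 9 genes with a promoter entry, 4 held at least 1 match, and the other three, *Ptges*, *Hpgd* and *Ptgfr*, were not called. Of all 32817 promoters of the same length, 27.7% held the core. The full palindromic estrogen response element was in 0 of the 9 and in 0.064% of all. A match describes the letters of a window and is no evidence of binding there.

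*Sox17* itself was 12.17 ± 0.09 (SD, n = 3) on the normalized log2 scale in Sox17f/f uteri and 9.72 ± 0.11 (SD, n = 3) in Sox17ed/ed uteri, a log2 fold change of -2.45, and its other probe gave -2.97. *Pgr*, *Esr1*, *Hoxa10*, *Hoxa11* and *Hand2*, which mark uterine tissue, were measured on every array and none was called. Of 6 ovary markers, 4 (*Cyp11a1*, *Cyp19a1*, *Amh* and *Fshr*) were too dim to test, and *Star* and *Inha* were not called. Between 60.7% and 65.7% of the spots on the Sox17f/f arrays, and between 56.8% and 59.4% on the Sox17ed/ed arrays, were well above background. Both genotypes shared a slide, but each filled its own row, so row and genotype cannot be told apart. All levels below are normalized log2 signals of a probe, which can be compared between arrays but not between genes.

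The largest change of the pathway was in *Pla2g10*, whose secreted enzyme frees fatty acids from phosphatidylcholine outside the cell. Its level was 12.39, 11.94 and 12.27 in the 3 Sox17f/f uteri and 4.92, 4.36 and 4.69 in the 3 Sox17ed/ed uteri. The genotypes lie far apart, and the spread within each is small beside the gap. The means were 12.20 ± 0.23 (SD, n = 3) and 4.66 ± 0.28 (SD, n = 3), and the log2 fold change was -7.54 (standard error 0.18, 95% confidence interval -7.98 to -7.11, adjusted p = 9.22e-06), which is 186-fold. With a normexp background correction, an alternative added once the data had been seen, it was 54.1-fold (log2 fold change -5.76). On the Sox17ed/ed arrays the probe was well above background on 2 of 3, so the low level is close to what these arrays can measure. In whole tissue, fewer cells of a type and less RNA per cell cannot be told apart, here and for every gene below.

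*Pla2g4a*, the cytosolic phospholipase A2 that supplies most arachidonic acid in many tissues, read 11.09, 10.97 and 11.23 in Sox17f/f uteri and 11.34, 11.05 and 11.37 in Sox17ed/ed uteri. The genotypes overlapped. Its log2 fold change was 0.16 (95% confidence interval -0.12 to 0.44, adjusted p = 0.395), and the interval does not reach a 1.4-fold change, which is 0.49 on this scale. *Pla2g4a* and *Pla2g10* thus had unlike values within the same step of the pathway.

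*Ptgs1*, encoding cyclooxygenase-1, the form that many tissues make at a steady level, was 10.80, 10.72 and 10.78 in Sox17f/f uteri and 12.89, 12.69 and 12.90 in Sox17ed/ed uteri. Every Sox17ed/ed array lay above every Sox17f/f array. The log2 fold change was 2.06 (standard error 0.08, 95% confidence interval 1.86 to 2.25, adjusted p = 3.48e-05), or 4.17-fold, and 164 genes (1.1% of those tested) rose by more.

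*Ptgs2*, encoding cyclooxygenase-2, the inducible form needed in the rodent uterus for implantation, was dim, at 5.79, 5.70 and 5.59 in Sox17f/f uteri and 6.86, 6.30 and 6.91 in Sox17ed/ed uteri. The genotypes did not overlap, although Sox17ed/ed replicate 2 stood below the other two. The log2 fold change was 0.998 (standard error 0.17, 95% confidence interval 0.58 to 1.42, adjusted p = 0.0115), or 2.0-fold. Without moderation of the variance across genes, in a plain linear model, the adjusted p was 0.0579, the highest of the alternatives run, and the call stood.

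The probe of *Ptgs2* was printed 10 times on each array, which shows the technical spread of the measurement (9 spots were used on Sox17f/f replicate 3). On the array of Sox17ed/ed replicate 2 its spots lay between 6.07 and 6.52, and the highest spot on any Sox17f/f array was 5.94. The spots of an array had an SD between 0.0997 and 0.160. Between uteri, the SD of the array means was 0.34 for the 3 Sox17ed/ed and 0.098 for the 3 Sox17f/f animals. An SD of single spots and an SD of array means are not like measures. Spots of 1 array share 1 sample, so they add no replicates.

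**Figure D2:**
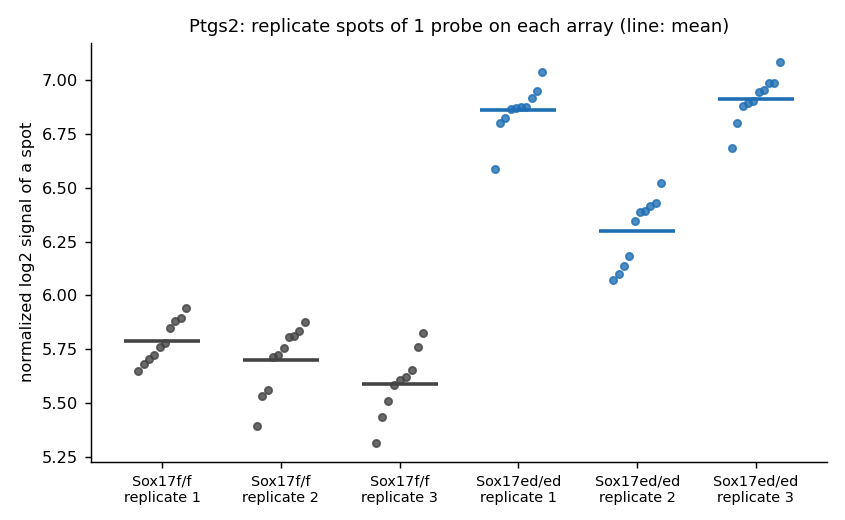
Normalized log2 signal of every *Ptgs2* spot on each array, sorted within the array, with a line at the array's mean. The 10 spots of Sox17ed/ed replicate 2 lie between 6.07 and 6.52, above all Sox17f/f spots, the highest of which is 5.94.

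Neither terminal synthase gene was called. *Ptges*, encoding the membrane prostaglandin E synthase that is often induced together with cyclooxygenase-2, was 13.33, 13.14 and 13.25 in Sox17f/f uteri and 13.43, 13.38 and 13.33 in Sox17ed/ed uteri. Its log2 fold change was 0.14 (95% confidence interval -0.04 to 0.32, adjusted p = 0.245), and a second, dimmer probe gave 0.25. *Ptgis*, encoding the synthase of prostaglandin I2 (prostacyclin), was 12.13, 12.07 and 12.37 against 12.03, 12.22 and 12.19, with a log2 fold change of -0.04 (95% confidence interval -0.29 to 0.21, adjusted p = 0.823). Neither interval reaches a 1.4-fold change.

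*Hpgd*, encoding the dehydrogenase that starts the breakdown of prostaglandins E2 and F2 alpha, was 9.76, 9.57 and 9.55 in Sox17f/f uteri and 9.38, 9.80 and 9.42 in Sox17ed/ed uteri. The values overlapped, with a log2 fold change of -0.09 (95% confidence interval -0.41 to 0.23, adjusted p = 0.683). Its other probe gave -0.02. On both probes Sox17ed/ed replicate 2 was the highest of its genotype, whereas for *Ptgs1*, *Ptgs2*, *Pla2g4a*, *Pla2g10*, *Ptger2* and *Ptger4* it was the lowest.

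Among the receptors, *Ptger2* stood apart. It encodes EP2, which raises cyclic AMP through Gs. Its level was 8.40, 9.04 and 8.53 in Sox17f/f uteri and 4.23, 4.12 and 4.66 in Sox17ed/ed uteri, so the genotypes did not overlap. The log2 fold change was -4.31 (standard error 0.21, 95% confidence interval -4.83 to -3.80), or 19.9-fold, with an adjusted p of 8.07e-05. With the normexp correction it was 5.75-fold (log2 fold change -2.52). Its probe was well above background on all 3 Sox17f/f arrays but on only 1 of 3 Sox17ed/ed arrays, that of replicate 3, and it would have entered the test on the Sox17f/f arrays alone, as would *Pla2g10*. The size of its fall is therefore uncertain.

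*Ptger4* encodes EP4, which also signals through Gs and reads the same ligand. It was 9.06, 9.14 and 9.05 in Sox17f/f uteri and 8.63, 8.54 and 8.83 in Sox17ed/ed uteri. The genotypes did not overlap, and the log2 fold change was -0.42 (standard error 0.09, 95% confidence interval -0.64 to -0.20, adjusted p = 0.0246). That is 1.34-fold, under the fold threshold, so it was not called. It was called without Sox17ed/ed replicate 3, at -0.50. Endothelial markers had lower values too: all 6 had negative log2 fold changes, all under the fold threshold, so none was called. For 5 of the 6 the genotypes did not overlap, beside 40.6% of all genes tested. An adjusted p under 0.05 was found for 4, beside 18.9% of all genes. Their summed signal was 8647 to 8791 in Sox17f/f uteri and 6763 to 7119 in Sox17ed/ed uteri. Their part in the values of *Ptger4* was not tested.

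*Ptgfr*, encoding the prostaglandin F2 alpha receptor FP, known for its role in the corpus luteum and in contraction of uterine muscle, varied widely between animals of a genotype. It was 7.48, 7.29 and 7.80 in Sox17f/f uteri and 6.92, 7.51 and 7.56 in Sox17ed/ed uteri. The log2 fold change was -0.19, and its 95% confidence interval of -0.70 to 0.32 takes in a 1.4-fold fall (adjusted p = 0.575). The summed signal of 6 muscle markers was 469483 to 516552 in Sox17f/f uteri and 341330 to 412244 in Sox17ed/ed uteri, with *Actg2* called lower. Their part in the values of *Ptgfr* was not tested.

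**Figure D3:**
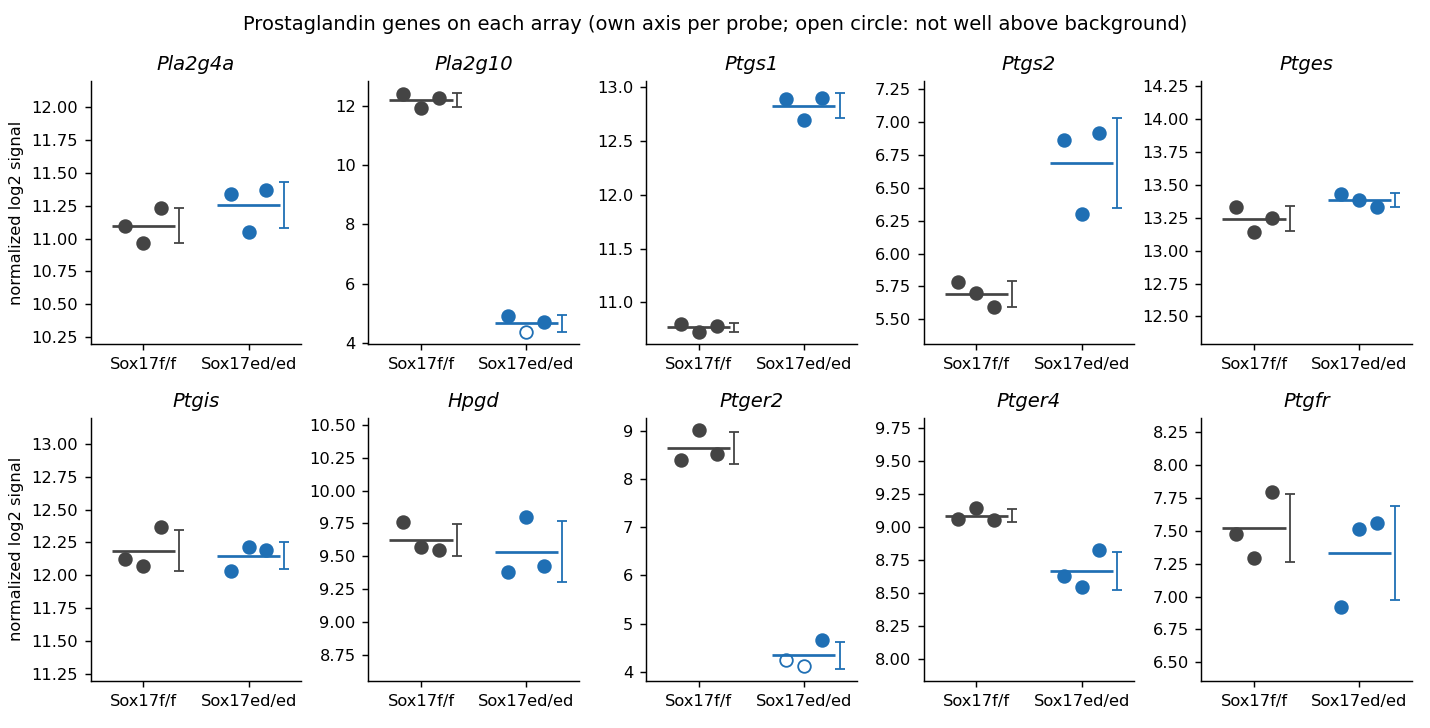
Normalized log2 signal of each of the 10 genes on every array, each panel with its own axis; horizontal lines are the mean of 3 arrays, side bars the SD, and open circles arrays on which the probe was not well above background. *Pla2g10* falls from 12.20 to 4.66 and *Ptger2* from 8.65 to 4.34, while *Ptgs1* and *Ptgs2* lie above the Sox17f/f values on all 3 Sox17ed/ed arrays.

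Counted together, the genotypes did not overlap for 5 of the 10 genes, the 4 called and *Ptger4*, and 40.6% of all genes tested did not overlap. The same 5 genes had an adjusted p under 0.05, as did 18.9% of all genes tested. The median log2 fold change of the 10 was -0.06 and that of all genes -0.00, and the median size of the change was 0.30 and 0.17. A two-sided exact permutation test, run on each gene alone, gave 0.1 for each of those 5, the smallest value that 3 against 3 arrays can give, and between 0.2 and 0.8 for the others.

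Neighbouring genes were listed by their order in the RefSeq table. *Pla2g4a* and *Ptgs2* lie next to each other on chromosome 1, and of this pair only *Ptgs2* was called. Of 18 other neighbours, 11 were tested and 1 was called, beside 12.5% of all genes tested. It was *Gipc2* beside *Ptgfr*, with a log2 fold change of 1.66 (adjusted p = 4.6e-05). *Ptger2* lies between *Ptgdr*, too dim to test, and *Txndc16*, whose log2 fold change was -0.03, while *Bfar* beside *Pla2g10* had -0.24 and *Mrrf* beside *Ptgs1* had -0.38. *Dab2* beside *Ptger4* had -0.45 (adjusted p = 0.0347), under the fold threshold and not called.

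The rest of the pathway was described with a list of 38 other genes, also chosen with earlier results of these data known. Of the list, 37 had a probe and 27 passed the filter. Of these 27, 4 were higher, 2 were lower and 21 were not called, which is 22.2% called beside 12.5% of all genes. Their median log2 fold change was 0.06. The 4 higher genes were *Pla2g5*, *Pla2g12a*, *Ptgds* and *Ptgdr2*, and the 2 lower ones *Akr1c18* and *Hpgds*.

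Among 6 other phospholipase A2 genes tested, the largest change was in *Pla2g5*, another secreted form. It was 6.09, 6.22 and 6.63 in Sox17f/f uteri and 10.71, 10.47 and 10.71 in Sox17ed/ed uteri. The log2 fold change of 4.32 (standard error 0.15, adjusted p = 2.66e-05), or 19.9-fold, was opposite in direction to that of *Pla2g10*. A second *Pla2g5* probe, matched to a different RefSeq transcript, did not show it, at 7.27, 6.35 and 2.66 against 6.11, 5.98 and 6.21. On that probe Sox17f/f replicate 3 was not well above background, and the probes disagree.

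*Pla2g12a*, also secreted, was 9.32, 9.52 and 9.14 in Sox17f/f uteri and 9.87, 9.68 and 9.90 in Sox17ed/ed uteri. Its log2 fold change was 0.49 (adjusted p = 0.0347), at the fold threshold, and the call held in 9 of 18 alternatives; 4 of the 6 fits that left out 1 array lost it, those without Sox17f/f replicate 1 or 3 or Sox17ed/ed replicate 1 or 3. *Pla2g2d* was well above background on no Sox17f/f array and on 2 Sox17ed/ed arrays, and was not tested. Its computed bound was 1.81-fold higher. That figure averages in Sox17ed/ed replicate 2, which was not well above background, so it is uncertain. A second *Pla2g2d* probe was well above background on no array, and its genotypes overlapped.

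The genes of prostaglandin D2 moved in both directions. *Ptgds*, encoding the lipocalin-type synthase, was 6.0, 6.16 and 5.95 in Sox17f/f uteri and 7.88, 7.33 and 8.07 in Sox17ed/ed uteri, so the log2 fold change was 1.72 (standard error 0.19, adjusted p = 0.00215). *Hpgds*, encoding the haematopoietic synthase, was 6.05, 6.59 and 6.12 against 5.38, 5.47 and 5.16, a log2 fold change of -0.92 (standard error 0.16, adjusted p = 0.0129). *Ptgdr2*, encoding the receptor DP2 of T helper 2 cells and eosinophils, was 5.97, 6.27 and 6.41 against 7.16, 7.34 and 7.19, a log2 fold change of 1.01 (standard error 0.13, adjusted p = 0.00331). For all 3 genes the genotypes did not overlap, as for 40.6% of all genes tested. With the normexp correction the log2 fold change of *Hpgds* was -0.46 and it was not called. Those of *Ptgds* and *Ptgdr2* shrank to 1.16 and 0.65, and both stayed called.

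Haematopoietic synthase is a mast cell enzyme among others, so mast cell markers were measured beside it. *Kit* was called lower, as was *Fcer1a*, which entered the test through the Sox17f/f arrays alone, being well above background on no Sox17ed/ed array. Their summed signal was 2267 to 2959 in Sox17f/f uteri and 1217 to 1599 in Sox17ed/ed uteri. *Kit*, which other cells make too, carried most of the difference: without it the sum of the other 5 was 1121 to 1581 and 923 to 1252, which overlap. The protease genes *Cpa3*, *Tpsb2*, *Cma1* and *Mcpt4*, which define mast cells, were well above background on all 6 arrays, and none was called. Their log2 fold changes were -0.53, -0.21, -0.42 and -0.36, and all 6 mast cell markers had negative values. The part of these cells in the fall of *Hpgds* was not tested.

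*Akr1c18* encodes 20 alpha-hydroxysteroid dehydrogenase, an enzyme best known for inactivating progesterone that can also act on prostaglandins. It was 7.76, 6.85 and 7.36 in Sox17f/f uteri, and on the 3 Sox17ed/ed arrays, none of which was well above background, it read 3.72, 3.14 and 3.44. It was at least 10.0-fold lower in Sox17ed/ed uteri (adjusted p = 0.000241), the bound being set by the dimmest signal well above background on each array. With the normexp correction the change was 3.01-fold, less than that bound, and the size is uncertain. It entered the test through the Sox17f/f arrays alone.

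The remaining pathway genes had smaller changes. *Akr1b3*, encoding an aldose reductase with prostaglandin F synthase activity, had a log2 fold change of 0.45 (adjusted p = 0.00621), under the fold threshold. Its other probe gave 0.60 and passed both thresholds, and with the mean of both probes *Akr1b3* was called, which makes 5 pathway genes higher. Of the other receptors, *Ptger1* had -0.65 (adjusted p = 0.0802) and the prostacyclin receptor gene *Ptgir* -0.50 (adjusted p = 0.146), neither called. *Ptger1* was called lower in 3 alternatives: with the normexp correction, with an intensity trend in the variance, and without Sox17ed/ed replicate 3, where it was -0.90 (adjusted p = 0.00461). *Ptger3* had 0.17 and the thromboxane receptor gene *Tbxa2r* 0.19. The nuclear receptor gene *Ppard* had -0.32 (adjusted p = 0.0456). The other prostaglandin E synthase genes, *Ptges2* and *Ptges3*, had -0.00 and -0.07, the thromboxane synthase gene *Tbxas1* had -0.14, and the transporter genes *Slco2a1* and *Abcc4* had 0.28 and 0.12, none of them called.

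**Figure D4:**
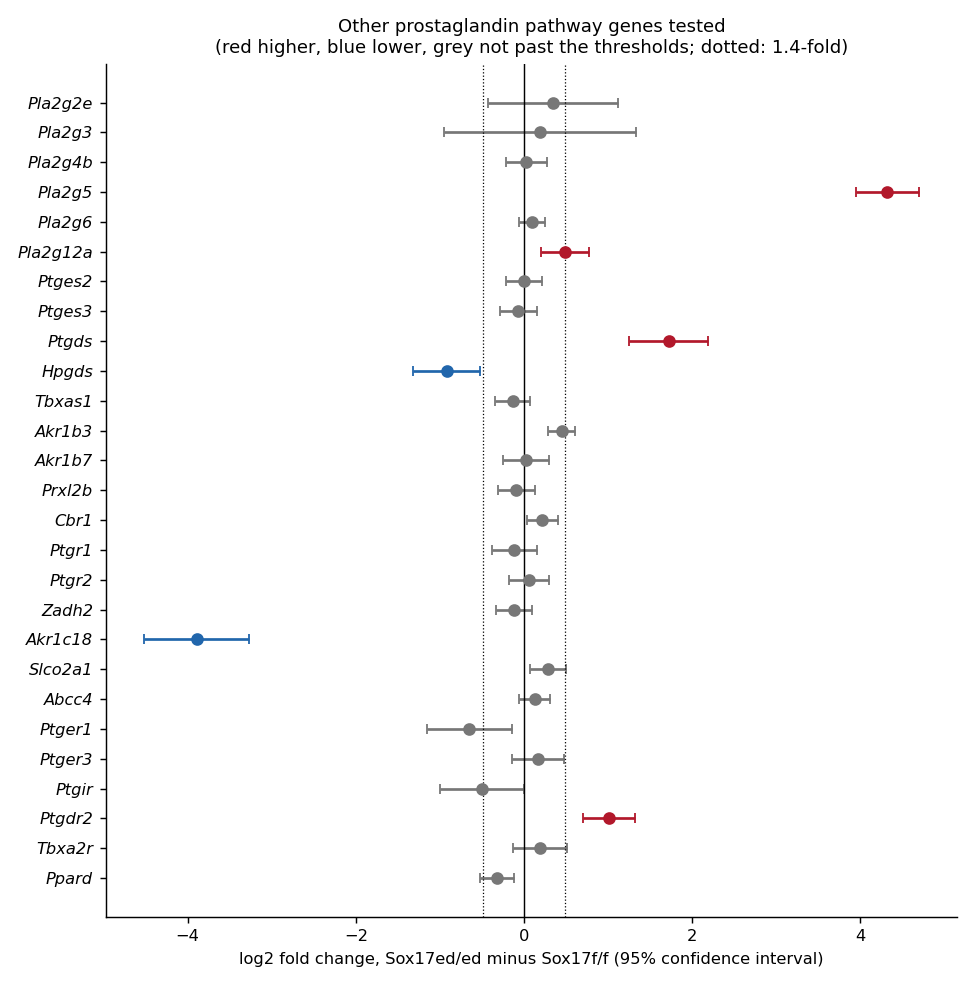
Log2 fold change, Sox17ed/ed minus Sox17f/f, of the 27 other pathway genes tested, with 95% confidence intervals, ordered by role; red was called higher, blue lower and grey neither, and dotted lines mark a 1.4-fold change. The called genes run from *Akr1c18*, shown at its fitted value of -3.89, to *Pla2g5* at 4.32, and most others lie near 0.

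Epithelial markers were measured because the deletion is epithelial. Of 8, *Cdh1*, *Krt7*, *Krt8* and *Krt19* were called higher and *Cldn3* lower, and their summed signal was 47298 to 49175 in Sox17f/f uteri and 50364 to 62377 in Sox17ed/ed uteri. *Krt19* carried that rise, and without it the direction turned. The sum of the other 7 was 42875 to 45463 in Sox17f/f uteri and 35282 to 41918 in Sox17ed/ed uteri. That sum is weighted to the brightest markers, in Sox17f/f uteri *Krt18* (log2 fold change -0.16) and *Cldn3* (-1.16). Its direction therefore does not describe *Cdh1*, *Krt7* and *Krt8*. Of 7 stromal markers tested none was called, and 4 had positive and 3 negative log2 fold changes. Their summed signal, weighted to *Dcn* (log2 fold change -0.42), was 184444 to 190487 in Sox17f/f and 152267 to 169826 in Sox17ed/ed uteri. Of 5 leukocyte and macrophage markers tested *Mrc1* was called lower, and 2 had positive and 3 negative log2 fold changes. *Csf1r* had 0.41 (adjusted p = 0.0162), under the fold threshold. The summed signal of these 5 was 15727 to 15851 in Sox17f/f uteri and 17329 to 18659 in Sox17ed/ed uteri. Of 4 squamous markers *Krt5* was higher, its probe being well above background on no Sox17f/f array and on all 3 Sox17ed/ed arrays. It entered the test through the Sox17ed/ed arrays alone. *Krt14*, *Krt13* and *Trp63* were not called, and *Trp63* had a log2 fold change of -0.12. Of the 3 genes listed as oviduct markers, *Ovgp1* and *Pax8* were lower and *Foxj1* higher. *Ovgp1* and *Pax8* were well above background on all arrays of both genotypes. *Foxj1* was so on 1 Sox17f/f array and all 3 Sox17ed/ed arrays, and would have entered the test on the latter alone. The part of these cell types in the changes of *Pla2g10*, *Ptger2*, *Ptgs1* and *Ptgs2* was not tested.

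The calls of *Pla2g10*, *Ptgs1* and *Ptger2* stood in every alternative that could test them, and that of *Ptgs2* in 17 of 18, all but a fold threshold of 2. The sizes moved more, and with the normexp correction the log2 fold change of *Ptgs2* was 0.56. *Pla2g10* and *Ptger2* could not be tested where a probe had to be well above background on all 6 arrays.

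**Figure D5:**
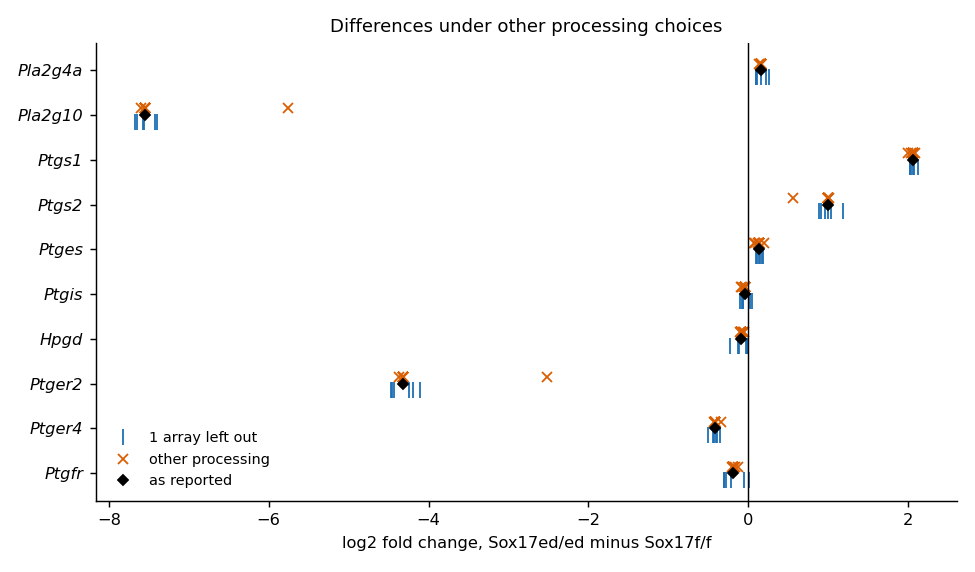
Log2 fold change of each of the 10 genes as reported (black diamonds), with 1 array left out (blue ticks) and under other processing choices (orange crosses), on the scale Sox17ed/ed minus Sox17f/f. The spread is widest for *Pla2g10*, from -7.67 to -5.76, and *Ptger2*, from -4.46 to -2.52, and no called gene crosses 0.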

How the data were processed

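RNA of 6 whole uteri, 3 Sox17f/f and 3 Sox17ed/ed, was measured on 1-colour Agilent arrays with 59305 spots besides controls. The deposited values are spot intensity from the scanner software, Feature Extraction 11.0.1.1 per the file headers, already background-subtracted, with no normalization between arrays. The authors' methods name quantile normalization, an unadjusted p under 0.01 and a fold change of at least 1.4.

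From the deposited intensity, log2 values were quantile normalized, between 169 and 302 outlier spots per array were left out, and spots of a probe were averaged. A probe was kept if at least 3 of the 6 arrays showed it well above background. Accessions tied 26582 of the 55681 probes to 20145 genes of the RefSeq table (GRCm38.p6; the array design is on mm9, so array positions were not used). Where a gene had several probes the brightest on average was used, and 14847 genes were tested. Where no array of a genotype was well above background, the change is given as a bound. The test was limma 3.58.1 in R 4.3.3, p-values were adjusted by Benjamini-Hochberg over the whole table, and the script was tested on simulated data first. Intervals are 95% confidence intervals. Each array held its own sample, and 3 arrays per genotype limit the precision.

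The members, the pathway list and the marker lists were chosen with earlier results of these data known. Every member is named; pathway genes are named where called, or by role. Alternatives changed the normalization, background correction, filter on dim probes, choice of probe, moderation, values used, call rule and arrays used. A normexp correction (offset 50) was run on the median spot signal, since the files used here hold no mean signal column.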

Additional observations from a re-analysis of the deposited data

How the results depend on the processing

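Across the alternatives, 641 of 661 log2 fold changes of the 10 members and 27 pathway genes kept their side of the thresholds, 12 no longer passed and 8 newly passed. The sign differed in 17 of them, in 9 genes, none of them called, such as *Ptgis* and *Ptgfr*. The newly passing genes were *Ptger4*, *Akr1b3* and *Ppard* with an adjusted p under 0.05 and no fold threshold, *Ptger1* with normexp, with an intensity trend and without Sox17ed/ed replicate 3, *Ptger4* without that replicate, and *Akr1b3* with the mean of its probes. With no filter on dim probes, 7 pathway genes were higher in place of 4, because more genes were tested. Where all 6 arrays had to be well above background, 0 members and 1 pathway gene were lower, since *Pla2g10*, *Ptger2* and *Akr1c18* were left out. With a fold threshold of 2, 1 member was higher and 1 pathway gene was lower. Leaving out each array in turn gave 2 members higher throughout, 2 to 3 lower, and 3 to 4 pathway genes higher and 2 to 3 lower. Same-numbered arrays of the genotypes deviated with correlations of 0.06, -0.11 and -0.00, and not every array correlated best with its own number. No shared deviation by number was seen. Deviations from a mean of 3 arrays are tied to one another, so these values cannot settle whether the animals were paired. With the replicate number as a block, 2 members were higher and 2 lower, and 3 pathway genes were higher and 2 lower. The mean of the probes of *Pla2g5* gave a log2 fold change of 2.49. The planned normexp correction on the mean signal was not run. Signal near background limits the sizes given for *Pla2g10*, *Ptger2* and *Akr1c18*.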
